A study of Mus musculus with 12 samples.

Results

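The 10 genes described here carry out antigen presentation by major histocompatibility complex (MHC) class I molecules. They are H2-D1, H2-K1, H2-T23, B2m, Tap1, Tap2, Tapbp, Psmb8, Psmb9 and Psme2. They were chosen by gene symbol and are 10 of the 46986 features in a table of RPKM values (reads scaled to gene length and library size). The values come from RNA sequencing of hematopoietic stem cells (HSCs), the cells of the bone marrow that renew the blood. The mice were 12-week-old C57BL/6 animals in 4 groups with 3 libraries each, and 2000 sorted HSCs went into each library. The ABX 5-FU mice had 4 antibiotics in their water for 4 to 6 weeks (vancomycin, metronidazole, neomycin and ampicillin), received 200 mg/kg of intravenous 5-fluorouracil (5-FU) and were analysed on day 12 after it. The Ctrl 5-FU mice received the same 5-FU dose without antibiotics and were analysed on the same day. The ABX mice had the antibiotics alone, and the Ctrl mice had neither treatment. 5-FU blocks the making of DNA and kills dividing cells, and the antibiotics deplete gut bacteria. The labels do not say that the libraries of a group came from separate mice, so a p-value here compares libraries and may reflect technical spread. No source used here gives the sort gates.

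In the class I pathway, proteasomes cut cytosolic proteins into peptides, the TAP transporter pumps the peptides into the endoplasmic reticulum, and a loading complex places them on newly made class I molecules. Each class I molecule is a heavy chain paired with the light chain beta-2 microglobulin, and it shows its peptide to CD8 T cells at the cell surface. Interferon-gamma raises the heavy chains, the transporter and the inducible proteasome subunits through regulators that include IRF1 and the coactivator NLRC5. Nearly all nucleated cells, stem cells included, carry class I molecules, and these also hold back natural killer cells.

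Of the 10 genes, 8 lie on chromosome 17, most of them within the mouse MHC, and 9 have an entry in the RefSeq table of upstream sequences; Tap2 is the gene without one. The 250 bases before the RefSeq start site (build GRCm38.p6, 5′ to 3′ on the gene's strand) are shown for the 3 heavy chains and the light chain, whose proteins form the class I molecule, and for Psmb8 and Psmb9, the inducible proteasome subunits. Capitals mark matches on either strand to the IRF core AANNGAAA, the NF-kB consensus, the cyclic AMP response element core TGACG, the CCAAT box and the GAS motif TTCNNNGAA. Matches in the NF-kB consensus overlap one another where the block is longer than 10 bases.
H2-D1, chr17:35262844-35263093, plus strand: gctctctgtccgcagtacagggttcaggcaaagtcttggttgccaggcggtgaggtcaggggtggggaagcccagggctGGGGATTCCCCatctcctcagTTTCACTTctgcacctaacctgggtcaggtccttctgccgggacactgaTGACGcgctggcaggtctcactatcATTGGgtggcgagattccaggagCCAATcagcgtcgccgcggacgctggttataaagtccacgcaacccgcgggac
H2-K1, chr17:34000348-34000597, minus strand: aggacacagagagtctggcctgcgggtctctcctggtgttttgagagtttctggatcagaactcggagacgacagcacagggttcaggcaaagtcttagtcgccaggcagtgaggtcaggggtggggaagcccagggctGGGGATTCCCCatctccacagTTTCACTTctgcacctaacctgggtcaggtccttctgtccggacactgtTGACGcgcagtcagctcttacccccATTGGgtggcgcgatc
H2-T23, chr17:36032702-36032951, minus strand: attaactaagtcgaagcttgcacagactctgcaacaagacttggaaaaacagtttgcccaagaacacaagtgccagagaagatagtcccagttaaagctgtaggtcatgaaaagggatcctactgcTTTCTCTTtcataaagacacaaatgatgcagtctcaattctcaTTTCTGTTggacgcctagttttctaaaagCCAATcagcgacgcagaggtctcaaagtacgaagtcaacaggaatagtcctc
B2m, chr2:122147437-122147686, plus strand: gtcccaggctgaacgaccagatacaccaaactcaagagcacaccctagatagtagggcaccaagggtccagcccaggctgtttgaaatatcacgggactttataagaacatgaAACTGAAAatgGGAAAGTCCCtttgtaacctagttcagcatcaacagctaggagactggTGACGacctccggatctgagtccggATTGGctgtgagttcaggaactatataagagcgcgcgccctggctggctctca
Psmb9, chr17:34187331-34187580, minus strand: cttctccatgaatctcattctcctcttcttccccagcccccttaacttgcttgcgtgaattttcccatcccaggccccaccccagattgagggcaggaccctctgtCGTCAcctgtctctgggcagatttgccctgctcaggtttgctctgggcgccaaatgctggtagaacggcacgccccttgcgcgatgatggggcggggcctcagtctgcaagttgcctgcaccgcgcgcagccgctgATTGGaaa
Psmb8, chr17:34197945-34198194, plus strand: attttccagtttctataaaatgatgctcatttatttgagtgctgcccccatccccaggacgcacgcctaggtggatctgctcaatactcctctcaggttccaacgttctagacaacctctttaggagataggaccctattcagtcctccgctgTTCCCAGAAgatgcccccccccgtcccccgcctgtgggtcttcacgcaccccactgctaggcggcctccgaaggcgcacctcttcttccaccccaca

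In H2-D1 the NF-kB block ran from -171 to -161, the IRF core from -150 to -143 and the TGACG core from -101 to -97, counted back from the start site. H2-K1 held the same 3 motifs in the same order and spacing, each 60 bases nearer its start site. With that offset, 166 of 190 aligned bases were the same, 87.4%. B2m carried an IRF core from -137 to -130, followed by an NF-kB match from -126 to -117 and a TGACG core from -78 to -74. H2-T23 had 2 IRF cores and no NF-kB match in this window. The RefSeq start sites differ from the gene bounds in the RPKM table: by the table, the windows shown for H2-D1, Psmb8 and Psmb9 lie inside the genes, and that of H2-T23 partly does. By RefSeq, Tap1 and Psmb9 are transcribed away from each other from start sites 226 bases apart, so the Psmb9 sequence above also holds the region upstream of Tap1. The IRF core was found in 4 of 9 genes (H2-D1, H2-K1, H2-T23 and B2m), against 21.6% of 27025 promoters of the same length. The NF-kB consensus was found in 3 of 9, against 7.01%, and TGACG in 6 of 9, against 17.9%. The CCAAT box was found in 7 of 9, against 34.5%, and the GAS motif in Psmb8 alone, against 7.18%. The windows of Tap1 and Psmb9 overlap and hold the same TGACG site and the same CCAAT site. In the TGACG and CCAAT counts, that shared site is counted for both genes. H2-D1 and H2-K1, with 87.4% of aligned bases the same, are also each counted for the IRF, NF-kB, TGACG and CCAAT motifs. These are matches of letters and not evidence of binding.

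**Figure D1:**
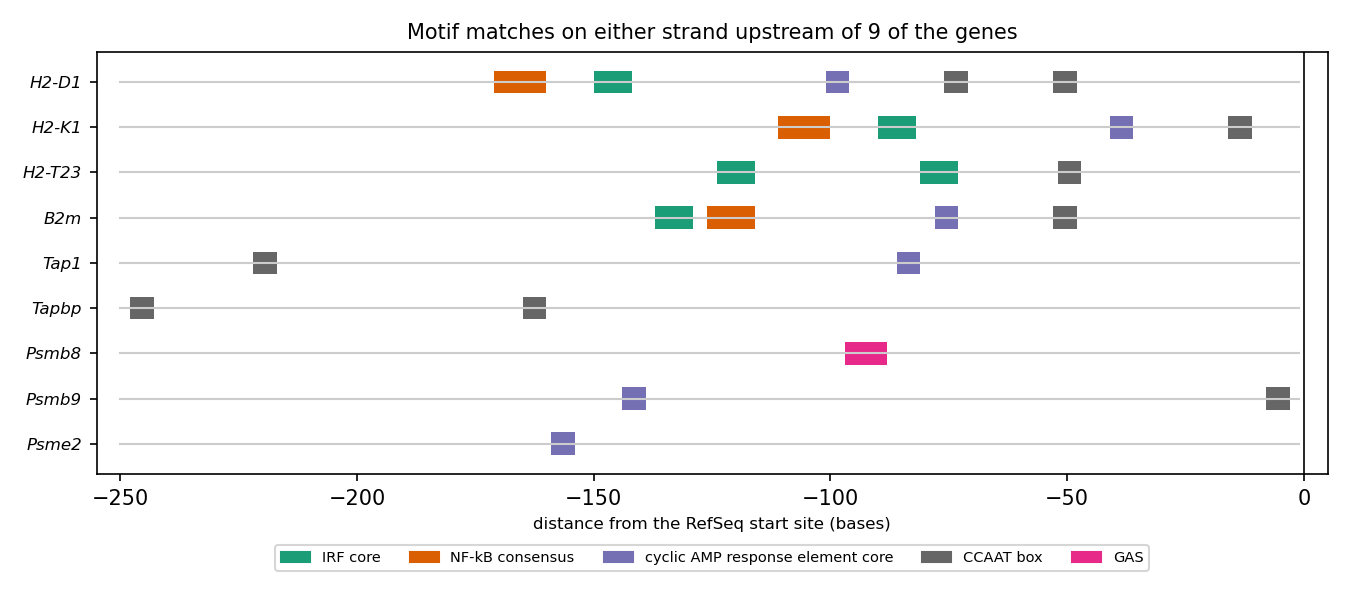
Motif matches on either strand in the 250 bases upstream of 9 genes, with distance from the RefSeq start site in bases on the horizontal axis, 1 gene per row and 1 colour per motif. H2-D1 and H2-K1 show the same order of NF-kB, IRF and TGACG matches, 60 bases nearer the start site in H2-K1.

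The libraries were alike within groups, with a Pearson r of log2 values over the tested genes of 0.971 to 0.993. The lowest values came from Ctrl 5-FU replicate 1, at 0.971 and 0.972 with its 2 group members. Depth, estimated from the spacing of low RPKM values, was 31.8 to 38.5 M reads in ABX 5-FU, 27.8 to 53.9 M in Ctrl 5-FU, 29.2 to 37.9 M in ABX and 44.2 to 54.9 M in Ctrl. It did not overlap between ABX and Ctrl. Of 10 genes on the HSC list, 8 passed the expression filter, among them Kit, Ly6a, Procr and Hlf. Mecom and Cd48 stayed under 1 RPKM in every library. Cd48 is used as a negative marker of HSCs, so the list does not hold only genes high in these cells. Mecom is a long gene (chr3:29951296-30548008), and the length behind its RPKM is not given. The summed genes of the HSC list were at 199 to 228 RPKM in ABX 5-FU, 219 to 240.1 in Ctrl 5-FU, 164 to 204 in ABX and 189 to 203 in Ctrl. Cd3e, Cd8a, Gzma, Ms4a1 and Pax5, which define T, natural killer and B cells, were at the lowest value of the table in all 12 libraries. Other markers on those lists were detected: Cd79b, a B-cell receptor component, was at 8.56 to 14.97 RPKM, and Nkg7, a granule protein of cytotoxic cells, at 23.4 to 49.5 RPKM. Klrb1c, a natural killer cell receptor, was at 0.579 to 6.41 RPKM over the 12 libraries. Summed neutrophil and monocyte markers (7 genes) reached 252 RPKM in Ctrl 5-FU. The 5-FU libraries carry other i7 sequencing indexes than those without 5-FU, so index and 5-FU cannot be told apart.

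The class I molecule itself ranked among the highest RPKM values of these HSCs. No source used here gives the gene length behind the RPKM. If that length includes introns, the order of genes below does not measure transcript abundance. Per length, over all 12 libraries, H2-D1 averaged 614 RPKM, B2m 603 RPKM and H2-K1 568 RPKM, which were ranks 29, 30 and 32 of the 8553 genes tested. H2-T23 followed at 172 RPKM (rank 153) and Psmb8 at 118 RPKM (rank 208). Tapbp (37.3 RPKM), Tap1 (27.2), Tap2 (27.2), Psmb9 (26.9) and Psme2 (12.2) were lower. The ranges of H2-D1, B2m and H2-K1 overlapped, as did those of Tap1, Tap2, Psmb9 and Tapbp. H2-T23 lay above Psmb8 within every library, but over the 12 libraries the ranges overlapped, at 137 to 206 RPKM for H2-T23 and 90.7 to 146 RPKM for Psmb8. Psme2 lay below the other 9 genes in every library. All 10 genes passed the filter of at least 1 RPKM in at least 3 libraries, and each was above it in all 12.

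**Figure D2:**
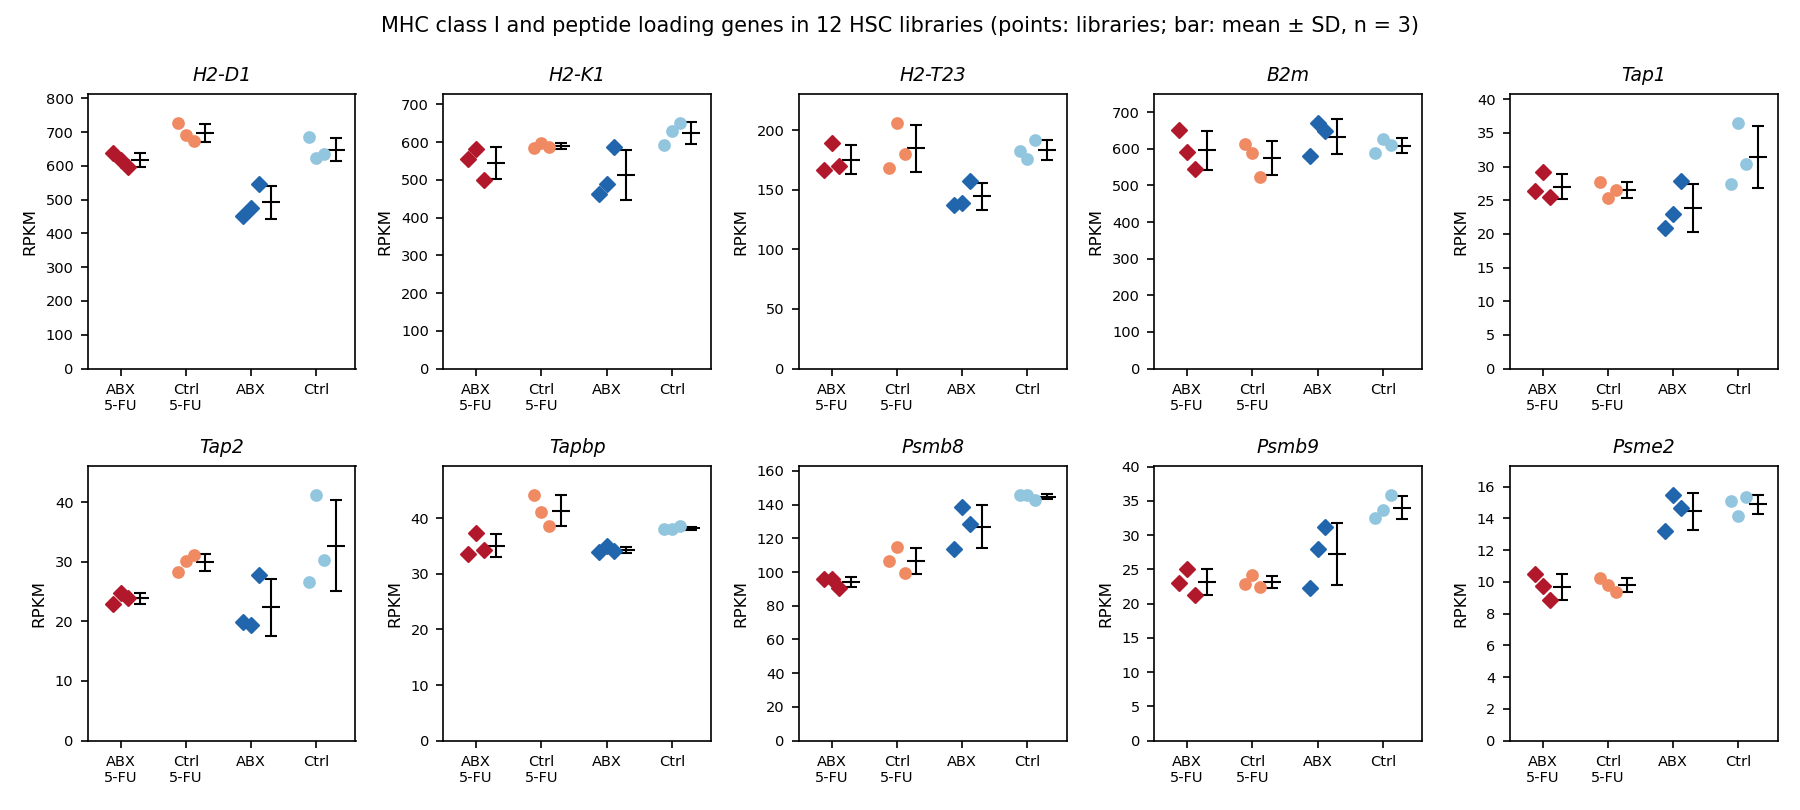
RPKM of the 10 genes on linear axes from 0, with 1 point per library in the order ABX 5-FU, Ctrl 5-FU, ABX and Ctrl, and the mean ± SD of 3 libraries beside the points. H2-D1 is lowest in ABX (453 to 548 RPKM), and Psme2 is at 8.83 to 10.5 RPKM in the 6 libraries after 5-FU, against 13.2 to 15.5 RPKM in the other 6.

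After 5-FU, genes of the inducible proteasome were called lower, and H2-D1, H2-K1 and H2-T23 were not. The constitutive proteasome gene Psmb6, outside the 10 genes, was also called lower on RPKM with and without antibiotics, as given below. In Ctrl 5-FU against Ctrl, 0 of the 10 genes were called higher and 3 lower (Psmb8, Psmb9 and Psme2) at a limma adjusted p under 0.05, when 21.6% of all tested genes were called, 9.74% higher and 11.8% lower. With antibiotics, in ABX 5-FU against ABX, 2 were called higher (H2-D1 and H2-T23) and 2 lower (Psmb8 and Psme2), when 30.2% of all tested genes were called, 13.7% higher and 16.5% lower. Without 5-FU, 0 of 10 were called in ABX against Ctrl, when 0.0702% of all genes were called. In that comparison 9 of the 10 log2 changes were below 0, as were those of 45.3% of all genes, and 8 had an unadjusted p under 0.05 in the lower direction, against 6.91% of all genes. The 3 ABX values lay below all 3 Ctrl values for 6 genes (H2-D1, H2-K1, H2-T23, Tapbp, Psmb8 and Psmb9), against 9.06% of all genes. In ABX 5-FU against Ctrl 5-FU, 0 of 10 were called, when 0.117% of all genes were called. There, 8 of 10 log2 changes were below 0, against 46.4% of all genes, and 2 had an unadjusted p under 0.05 in the lower direction, against 7.21% of all genes. For 5 genes (H2-D1, H2-K1, Tap2, Tapbp and Psmb8) the ABX 5-FU values lay below all Ctrl 5-FU values, against 9.67% of all genes. Each group enters 2 of the 4 comparisons, so the 4 counts are not independent of one another. The 3 calls in Ctrl 5-FU against Ctrl held with each library left out in turn, Ctrl 5-FU replicate 1 included. In bulk RNA, fewer cells of a type and less RNA per cell cannot be told apart.

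The median log2 change of the 10 genes was -0.31 in ABX against Ctrl, beside 0.02 over all tested genes. It was -0.09 in ABX 5-FU against Ctrl 5-FU, beside 0.01 over all genes. The median was 0.06 in ABX 5-FU against ABX, beside -0.01 over all genes, and in Ctrl 5-FU against Ctrl it was -0.10, beside 0.00 over all genes. RPKM summed to less after 5-FU, at a mean of 153338 in ABX 5-FU and 149253 in Ctrl 5-FU, against 173185 in ABX and 169263 in Ctrl. Rescaling every library to the same total (TPM) moved the median of all genes to 0.15 in ABX 5-FU against ABX and to 0.18 in Ctrl 5-FU against Ctrl. The share of calls that were higher then became 74.1% in ABX 5-FU against ABX, in place of 45.4% on RPKM, and 81.1% in Ctrl 5-FU against Ctrl, in place of 45.1%. Changes after 5-FU are therefore also given on the TPM scale where the call or the sign differs, to be read against those medians.

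**Figure D3:**
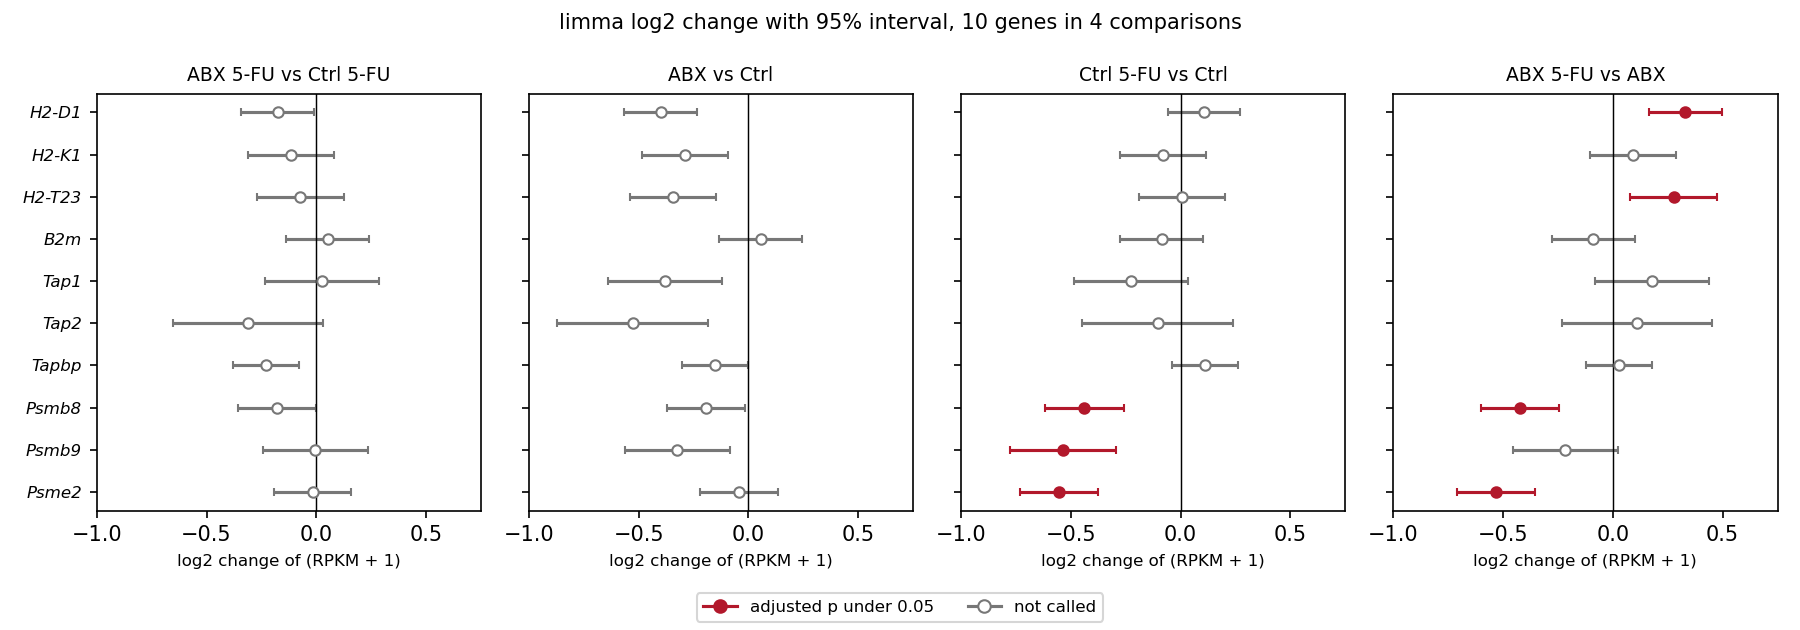
log2 change of RPKM + 1 with its 95% interval from limma for the 10 genes (rows) in 4 comparisons (panels), filled red where the adjusted p was under 0.05 and open grey otherwise. The 7 filled points are H2-D1, H2-T23, Psmb8 and Psme2 in ABX 5-FU against ABX, and Psmb8, Psmb9 and Psme2 in Ctrl 5-FU against Ctrl.

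H2-D1 and H2-K1 encode the classical heavy chains, which present peptides to CD8 T cells, and lie at chr17:35262730-35267499 and chr17:33996017-34000333 (mm10). H2-D1 had 637, 617 and 597 RPKM in ABX 5-FU, 727, 692 and 673 RPKM in Ctrl 5-FU, 453, 476 and 548 RPKM in ABX, and 686, 623 and 635 RPKM in Ctrl. All 3 ABX libraries were lower than the other 9, and ABX 5-FU also lay wholly below Ctrl 5-FU. H2-D1 was called higher in ABX 5-FU than in ABX, by 0.33 ± 0.075 on the log2 scale (SE, limma adjusted p = 0.00812, 95% interval 0.16 to 0.50). It kept that call in all 19 alternatives run for this comparison. In ABX against Ctrl its log2 change was -0.40 ± 0.075 with an adjusted p of 0.0819, which passed the threshold on the TPM scale (adjusted p = 0.0267) and without ABX replicate 3 (adjusted p = 0.0312). The change in ABX 5-FU against Ctrl 5-FU was -0.18 ± 0.075 (adjusted p = 0.305). In Ctrl 5-FU against Ctrl it was 0.11 ± 0.075 (adjusted p = 0.332), and it was called higher there on the TPM scale, by 0.29 (adjusted p = 0.00705), and after quantile normalization, by 0.43 (adjusted p = 0.00385).

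H2-K1 had 555, 582 and 499 RPKM in ABX 5-FU, 585, 599 and 586 RPKM in Ctrl 5-FU, 462, 489.6 and 588 RPKM in ABX, and 594, 629.9 and 651 RPKM in Ctrl. The ABX libraries lay below the Ctrl libraries, the nearest values being 588 and 594 RPKM, and ABX 5-FU lay below Ctrl 5-FU by as little, at 582 against 585 RPKM. None of its 4 changes was called: -0.12 ± 0.09 in ABX 5-FU against Ctrl 5-FU (adjusted p = 0.575), -0.29 ± 0.09 in ABX against Ctrl (adjusted p = 0.167), 0.09 ± 0.09 in ABX 5-FU against ABX (adjusted p = 0.467) and -0.08 ± 0.09 in Ctrl 5-FU against Ctrl (adjusted p = 0.543). The change in ABX 5-FU against ABX was called on the TPM scale, at 0.27 (adjusted p = 0.0255), and after quantile normalization, at 0.32 (adjusted p = 0.0209). In Ctrl 5-FU against Ctrl it turned positive under both scalings, at 0.10 and 0.17, and stayed uncalled.

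H2-T23 encodes Qa-1, a non-classical heavy chain that presents peptides from the leader sequences of other class I molecules to natural killer receptors (chr17:36029773-36032855). H2-T23 had 167, 189 and 170.1 RPKM in ABX 5-FU, 168, 206 and 179.9 RPKM in Ctrl 5-FU, 137, 139 and 157 RPKM in ABX, and 182, 176 and 192 RPKM in Ctrl. As for H2-D1, the 3 ABX libraries were below all others. H2-T23 was called higher in ABX 5-FU than in ABX, by 0.28 ± 0.09 on the log2 scale (adjusted p = 0.0374). That call was lost with no filter on low values (adjusted p = 0.162). It was also lost without ABX replicate 1 (0.106) or 2 (0.121) and without ABX 5-FU replicate 1 (0.0518), 2 (0.143) or 3 (0.071). The change in ABX against Ctrl was -0.34 ± 0.09 (adjusted p = 0.133), and that in Ctrl 5-FU against Ctrl was 0.01 ± 0.09 (adjusted p = 0.971), or 0.32 after quantile normalization (adjusted p = 0.0425). Heavy chains share stretches of sequence: 6.9% of the 75-base windows of the H2-D1 transcript, 1.55% of those of H2-K1 and 13.1% of those of H2-T23 also occur in other genes, so part of their reads could have been placed elsewhere.

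B2m encodes beta-2 microglobulin, the light chain shared by all these molecules, and is the 1 gene of the class I molecule outside the MHC (chr2:122147686-122153083). B2m had 652, 591 and 544 RPKM in ABX 5-FU, 612, 589 and 522 RPKM in Ctrl 5-FU, 579, 670.5 and 649.9 RPKM in ABX, and 588, 627 and 611 RPKM in Ctrl. The groups overlapped in all 4 comparisons, and its largest log2 change was -0.09 ± 0.086, in ABX 5-FU against ABX (adjusted p = 0.463). It was the 1 gene of the 10 with a positive change in ABX against Ctrl, at 0.06 ± 0.086 (adjusted p = 0.771, 95% interval -0.13 to 0.24). Both changes after 5-FU turned positive on the TPM scale (0.09 and 0.10) and stayed uncalled.

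Tap1 and Tap2 encode the paired chains of the peptide transporter. Tap1 (chr17:34187553-34197225) had 26.4, 29.2 and 25.5 RPKM in ABX 5-FU, 27.7, 25.4 and 26.4 RPKM in Ctrl 5-FU, 20.9, 22.9 and 27.8 RPKM in ABX, and 27.4, 36.5 and 30.3 RPKM in Ctrl. ABX and Ctrl overlapped only through ABX replicate 3 (27.8 RPKM) and Ctrl replicate 1 (27.4 RPKM). Its log2 change was -0.38 ± 0.12 in ABX against Ctrl (adjusted p = 0.167) and -0.23 ± 0.12 in Ctrl 5-FU against Ctrl (adjusted p = 0.187). The change of Tap1 in ABX 5-FU against ABX was 0.18 ± 0.12 (adjusted p = 0.269), which was called on the TPM scale (0.36, adjusted p = 0.0421).

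Tap2 (chr17:34203527-34216321) had 22.9, 24.7 and 23.9 RPKM in ABX 5-FU, 28.3, 30.1 and 31.2 RPKM in Ctrl 5-FU, 19.8, 19.4 and 27.8 RPKM in ABX, and 26.6, 41.2 and 30.3 RPKM in Ctrl. ABX 5-FU lay below Ctrl 5-FU without overlap, while ABX replicate 3 exceeded Ctrl replicate 1. Tap2 had the largest mean difference of the 10 genes in both antibiotic comparisons, -0.31 ± 0.16 in ABX 5-FU against Ctrl 5-FU (adjusted p = 0.382) and -0.53 ± 0.16 in ABX against Ctrl (adjusted p = 0.159). It also had the largest standard error of the 10, and Ctrl replicate 2 (41.2 RPKM) stood well above the other 11 libraries.

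Tapbp encodes tapasin, which bridges the transporter and the waiting heavy chain (chr17:33915899-33929288). Tapbp had 33.6, 37.4 and 34.3 RPKM in ABX 5-FU, 44.2, 41.2 and 38.7 RPKM in Ctrl 5-FU, 33.9, 35.0 and 34.1 RPKM in ABX, and 38.1, 38.0 and 38.6 RPKM in Ctrl. With or without 5-FU, the antibiotic libraries lay below the others without overlap. The log2 change was -0.23 ± 0.068 in ABX 5-FU against Ctrl 5-FU (unadjusted p = 0.00619, adjusted p = 0.157) and -0.15 ± 0.068 in ABX against Ctrl (adjusted p = 0.279). In Ctrl 5-FU against Ctrl it was 0.11 ± 0.068 (adjusted p = 0.273), and it was called higher there on the TPM scale (0.29, adjusted p = 0.0106) and after quantile normalization (0.21, adjusted p = 0.0491). Its change in ABX 5-FU against ABX was 0.03 ± 0.068 (adjusted p = 0.769), and that was called higher on the TPM scale alone (0.21, adjusted p = 0.0386). Tapbp overlaps Zbtb22 on the same strand over 3421 bases, and Zbtb22 was at 10.6 to 16.9 RPKM, so reads of that stretch cannot be assigned to either gene.

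Psmb8 and Psmb9 encode inducible catalytic subunits that replace Psmb5 and Psmb6 in the immunoproteasome, a form that cuts more peptides fit for class I molecules. Psmb8 (chr17:34197721-34201454) had 95.8, 96.1 and 90.7 RPKM in ABX 5-FU, 106.5, 115 and 99.2 RPKM in Ctrl 5-FU, 113, 139 and 129 RPKM in ABX, and 146, 146 and 143 RPKM in Ctrl. ABX 5-FU was lowest and Ctrl highest, with Ctrl 5-FU and ABX between them and overlapping each other. Psmb8 fell by 0.42 ± 0.081 on the log2 scale in ABX 5-FU against ABX (adjusted p = 0.00333) and by 0.44 ± 0.081 in Ctrl 5-FU against Ctrl (adjusted p = 0.00469). Neither call held after quantile normalization, where the changes were -0.19 (adjusted p = 0.0747) and -0.18 (adjusted p = 0.0953). The antibiotic differences were -0.18 ± 0.081 in ABX 5-FU against Ctrl 5-FU (adjusted p = 0.338) and -0.19 ± 0.081 in ABX against Ctrl (adjusted p = 0.248).

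Psmb9 (chr17:34181988-34187764) had 23.01, 25.0 and 21.3 RPKM in ABX 5-FU, 22.8, 24.2 and 22.5 RPKM in Ctrl 5-FU, 22.3, 28.0 and 31.2 RPKM in ABX, and 32.5, 33.6 and 35.9 RPKM in Ctrl. The 3 Ctrl libraries were above the other 9. Psmb9 fell by 0.54 ± 0.11 on the log2 scale in Ctrl 5-FU against Ctrl (adjusted p = 0.00749), a call that missed the threshold with no filter on low values (adjusted p = 0.0534). In ABX 5-FU against ABX its change was -0.22 ± 0.11 (adjusted p = 0.155), and it was called without ABX replicate 1 (-0.35, adjusted p = 0.0226), the ABX library lowest in Psmb9. The same change was -0.11 without ABX replicate 3 (adjusted p = 0.453), -0.14 after quantile normalization (adjusted p = 0.372) and -0.048 on the TPM scale (adjusted p = 0.734). In ABX against Ctrl it was -0.32 ± 0.11 (adjusted p = 0.193). By the gene bounds of the table, Tap1 and Psmb9 overlap by 212 bases on opposite strands, and reads of that stretch cannot be told apart, since the SMART-Seq and Nextera kits used do not mark strand.

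Psme2 encodes PA28-beta, a subunit of the proteasome activator that opens the proteasome and is induced by interferon-gamma (chr14:55587441-55591113). Psme2 had 10.5, 9.76 and 8.83 RPKM in ABX 5-FU, 10.2, 9.79 and 9.39 RPKM in Ctrl 5-FU, 13.2, 15.5 and 14.6 RPKM in ABX, and 15.1, 14.2 and 15.3 RPKM in Ctrl. The 6 libraries after 5-FU were all below the 6 without it, and the antibiotic groups overlapped. Psme2 fell by 0.53 ± 0.081 on the log2 scale in ABX 5-FU against ABX (adjusted p = 0.00107) and by 0.56 ± 0.081 in Ctrl 5-FU against Ctrl (adjusted p = 0.00155), and both calls held in all 19 alternatives. Its values are uncertain, since 51.7% of its 75-base windows also occur in the near-identical Psme2b on chromosome 11. Psme2b, at 81.7 to 144 RPKM, fell by 0.54 in both comparisons (adjusted p = 0.00136 in ABX 5-FU against ABX and 0.00251 in Ctrl 5-FU against Ctrl).

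Markers of other cell types also differed between the groups, and their part in these results was not tested. In Ctrl 5-FU against Ctrl, the summed neutrophil and monocyte markers were 32.8 to 252 RPKM against 8.31 to 19.0 RPKM, with 4 of the 7 markers above the filter. The summed T and natural killer markers (2 of 6 above the filter) were 38.8 to 54.9 RPKM against 24.9 to 39.4 RPKM, and the erythroid markers (3 of 4) were 114 to 151 RPKM against 17.1 to 131 RPKM. In ABX 5-FU against ABX, the neutrophil and monocyte sum was 11.3 to 34.1 RPKM against 8.38 to 18.1 RPKM, and the T and natural killer sum 31.8 to 37.7 RPKM against 23.96 to 27.8 RPKM. The erythroid sum was 139 to 270.2 RPKM against 29.6 to 45.5 RPKM. Klrb1c rose in both comparisons, to a mean of 5.85 RPKM in ABX 5-FU against 0.708 RPKM in ABX (adjusted p = 1.49e-05) and to 5.38 RPKM in Ctrl 5-FU against 0.865 RPKM in Ctrl (adjusted p = 3.54e-05). Between the 5-FU groups, the neutrophil and monocyte sum was 11.3 to 34.1 RPKM in ABX 5-FU and 32.8 to 252 RPKM in Ctrl 5-FU. S100a9, Ngp and Camp of that list lay wholly lower in ABX 5-FU, as did Nkg7, the erythroid Klf1 and the megakaryocyte Itga2b, and none of them was called (adjusted p = 0.11 to 0.198). The megakaryocyte sum was 93.9 to 108.5 RPKM in ABX 5-FU and 88.4 to 372.7 RPKM in Ctrl 5-FU, and 76.8 to 78.9 RPKM in ABX and 51.7 to 138.8 RPKM in Ctrl. The stroma and endothelium sum was 1.47 to 26.65 RPKM in ABX 5-FU and 0.953 to 1.48 RPKM in ABX. Without antibiotics it was 1.34 to 11.2 RPKM in Ctrl 5-FU and 0.798 to 5.62 RPKM in Ctrl. Pecam1 of that list was called higher by limma in both 5-FU comparisons (adjusted p = 0.00372 with antibiotics, 0.00502 without). Cxcl12 of the same list was not called in either. Klf1 lay wholly lower in ABX than in Ctrl, by -1.27 on the log2 scale (adjusted p = 0.0846). In ABX against Ctrl, the neutrophil and monocyte sums overlapped, at 8.38 to 18.1 RPKM against 8.31 to 19.0 RPKM.

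The difference of the 5-FU changes with and without antibiotics was tested as an interaction. It was called by limma for 0 of the 10 genes, and for 0.0117% of all tested genes. An unadjusted p under 0.05 was found for 1 of the 10, against 8.3% of all genes. That p was 0.0323, for Tap1, whose 5-FU change was 0.41 higher with antibiotics than without (adjusted p = 0.59). For H2-D1 the difference was 0.22 (adjusted p = 0.606) and for H2-T23 it was 0.27 (adjusted p = 0.599), so the calls of these 2 genes in ABX 5-FU against ABX alone are not shown to depend on antibiotics. For Psme2 it was 0.03 (adjusted p = 0.963) and for Psmb8 0.02 (adjusted p = 0.978).

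Ratios within a library do not depend on the scaling of that library, and they are given as values with no test. The sum of the heavy chains given with them does depend on that scaling. The size of a ratio also depends on the gene lengths behind the RPKM. Some were chosen after the values were seen: H2-D1 over Psmb8, H2-K1 over Psmb8, and H2-D1 over H2-K1. The summed heavy chains H2-D1, H2-K1 and H2-T23 were 1359, 1388 and 1266 RPKM in ABX 5-FU, 1481, 1496 and 1439 RPKM in Ctrl 5-FU, 1052, 1104 and 1293 RPKM in ABX, and 1462, 1428 and 1478 RPKM in Ctrl. Both antibiotic groups lay below their counterparts without overlap. B2m over the summed heavy chains was 0.426 to 0.480 in ABX 5-FU against 0.363 to 0.414 in Ctrl 5-FU, and 0.503 to 0.607 in ABX against 0.402 to 0.439 in Ctrl. The light chain was therefore higher relative to the heavy chains in all antibiotic libraries than in their counterparts. H2-D1 over Psmb8 was 6.42 to 6.65 in ABX 5-FU and 6.03 to 6.83 in Ctrl 5-FU, against 3.44 to 4.26 in ABX and 4.27 to 4.71 in Ctrl. H2-K1 over Psmb8 was 5.50 to 6.06 in ABX 5-FU and 5.22 to 5.91 in Ctrl 5-FU, against 3.54 to 4.57 in ABX and 4.08 to 4.55 in Ctrl. Both heavy chains thus stood higher relative to the inducible subunit in all 6 libraries after 5-FU than in the 6 without it. H2-D1 over H2-K1 was 1.06 to 1.20 in ABX 5-FU and 1.15 to 1.24 in Ctrl 5-FU, against 0.932 to 0.980 in ABX and 0.976 to 1.16 in Ctrl. The 5-FU libraries lay above those without 5-FU in the antibiotic groups, and overlapped them in the groups without antibiotics.

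The inducible subunits were also set against the constitutive ones they replace. Psmb8 over Psmb5 was 2.85 to 3.32 in ABX 5-FU, 3.05 to 3.19 in Ctrl 5-FU, 3.20 to 3.47 in ABX and 3.19 to 3.90 in Ctrl, and Psmb9 over Psmb6 was 0.303 to 0.368, 0.306 to 0.354, 0.285 to 0.354 and 0.327 to 0.387 in the same order of groups. These ratios overlapped in all 4 comparisons. Psmb10 over Psmb7 was 25.8 to 30.6 in ABX 5-FU, below both the 31.3 to 37.9 of Ctrl 5-FU and the 34.6 to 38.5 of ABX, and it was 35.4 to 39.4 in Ctrl. Psmb7 was at only 1.05 to 1.41 RPKM, and it is a long gene (chr2:38588036-38644087). The size of that last ratio therefore depends on the gene length behind the RPKM, which is not given.

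**Figure D4:**
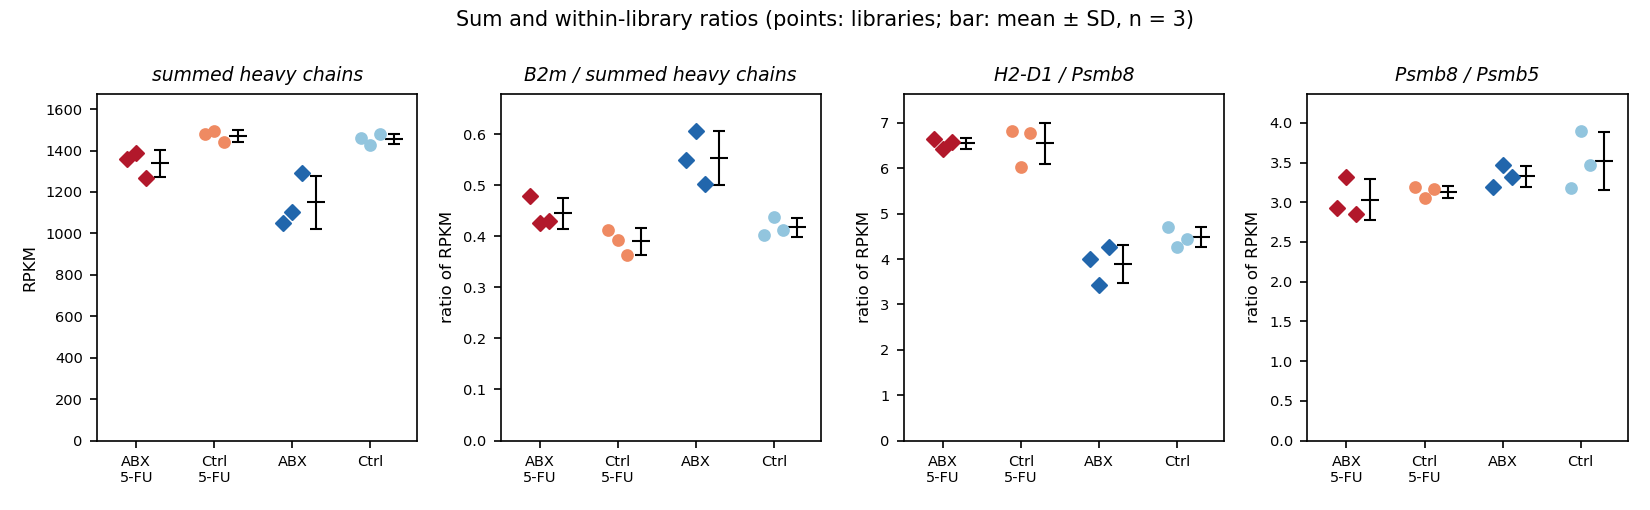
Summed heavy chains (RPKM) and 3 ratios of RPKM within a library on linear axes from 0, with 1 point per library and the mean ± SD of 3 libraries beside the points. B2m over the summed heavy chains is higher in each antibiotic group than in its counterpart, H2-D1 over Psmb8 is at 6.03 or above in the 6 libraries after 5-FU and at 4.71 or below in the other 6, and Psmb8 over Psmb5 overlaps between groups.

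A list of 52 other class I pathway genes, of which 44 were tested, was followed in the same fit. In ABX 5-FU against ABX, 14 of 44 were called higher and 8 lower, against 13.7% and 16.5% of all tested genes. Of the 44, 6 were called higher and 8 lower in Ctrl 5-FU against Ctrl, against 9.74% and 11.8% of all tested genes. The median log2 change was 0.09 in ABX 5-FU against ABX and 0.00 in Ctrl 5-FU against Ctrl. In both antibiotic comparisons and in the interaction 0 of 44 were called by limma, with 2 at an unadjusted p under 0.05 in ABX 5-FU against Ctrl 5-FU (7.21% of all genes in that direction) and 8 in ABX against Ctrl (6.91%), all lower, and 6 in the interaction (8.3% in either direction). Without ABX replicate 2 the counts in ABX 5-FU against ABX were 7 higher and 4 lower, without ABX 5-FU replicate 2 they were 7 and 5, and over all 12 left-out libraries 7 to 15 and 4 to 9. Without Ctrl 5-FU replicate 3 the counts in Ctrl 5-FU against Ctrl were 5 higher and 5 lower. In ABX against Ctrl, 30 of 44 changes were below 0, against 45.3% of all genes, with a median of -0.10.

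Of the 7 other proteasome genes, 6 were called lower and 0 higher in ABX 5-FU against ABX, and 4 lower and 0 higher in Ctrl 5-FU against Ctrl, when 16.5% and 11.8% of all genes were called lower. On the TPM scale 3 stayed lower in each comparison, and 0 were called higher. With 1 library left out, 3 to 6 were lower in ABX 5-FU against ABX, the 3 arising without ABX replicate 2 or 3, ABX 5-FU replicate 2 or 3, or Ctrl replicate 3. Psme1, the partner of Psme2 in PA28, averaged 53.1 ± 1.34 RPKM in ABX 5-FU and 69.0 ± 4.98 RPKM in ABX (SD, n = 3 each), a fall by 0.37 ± 0.088 on the log2 scale (limma adjusted p = 0.00944). It averaged 51.0 ± 5.43 RPKM in Ctrl 5-FU and 72.7 ± 4.59 RPKM in Ctrl, a fall by 0.51 ± 0.088 (limma adjusted p = 0.0035). Psmb10, the third inducible catalytic subunit, fell by 0.45 ± 0.086 in ABX 5-FU against ABX (adjusted p = 0.00307) and by 0.40 ± 0.086 in Ctrl 5-FU against Ctrl (adjusted p = 0.00874). The constitutive Psmb6 fell by 0.27 ± 0.095 (adjusted p = 0.0498) and by 0.37 ± 0.095 (adjusted p = 0.0196) in the same comparisons. Psmb5 fell by 0.28 ± 0.095 in ABX 5-FU against ABX (adjusted p = 0.0439) and changed by -0.27 ± 0.095 in Ctrl 5-FU against Ctrl (adjusted p = 0.0624). Neither Psmb5 nor Psmb6 was called on the TPM scale, and with 1 library left out their calls in ABX 5-FU against ABX were lost in 6 and 9 of 12 cases. Psme3, which encodes the nuclear activator PA28-gamma, fell by 0.55 ± 0.085 in ABX 5-FU against ABX (adjusted p = 0.00111). It was not called in Ctrl 5-FU against Ctrl, where it changed by -0.21 ± 0.085 (adjusted p = 0.0926).

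Of the 16 regulators tested, 9 were called higher and 0 lower in ABX 5-FU against ABX, and 5 higher and 0 lower in Ctrl 5-FU against Ctrl, when 13.7% and 9.74% of all genes were called higher. On the TPM scale 11 and 7 were higher and 0 lower. With 1 library left out, 6 to 10 and 4 to 6 were called higher and 0 lower. The calls in ABX 5-FU against ABX were lost in 6 of 12 cases for Rfxank, 5 for Irf2 and 4 for Jak1. All 4 interferon receptor chains were called higher in both 5-FU comparisons. Ifnar2 was not called in Ctrl 5-FU against Ctrl without Ctrl replicate 3 (adjusted p = 0.0603) or Ctrl 5-FU replicate 3 (adjusted p = 0.066). Ifngr1, the ligand-binding chain of the interferon-gamma receptor, averaged 14.4 ± 0.772 RPKM in ABX 5-FU against 8.15 ± 0.578 RPKM in ABX, and 15.2 ± 1.63 RPKM in Ctrl 5-FU against 9.54 ± 0.682 RPKM in Ctrl (SD, n = 3 each). It rose by 0.75 ± 0.089 with antibiotics (limma adjusted p = 0.000349) and by 0.62 ± 0.089 without (limma adjusted p = 0.0015). Ifngr2, the signalling chain, rose by 0.73 ± 0.094 and 0.67 ± 0.094, and Nfkb1, a subunit of NF-kB, by 0.62 ± 0.069 and 0.55 ± 0.069. Ifnar1, a chain of the type I interferon receptor, rose by 0.54 ± 0.093 and 0.44 ± 0.093. Stat2 rose by 0.57 ± 0.11 in ABX 5-FU against ABX (adjusted p = 0.00283). Ifngr2, Nfkb1 and Stat2 were low, at 0.914 to 3.63 RPKM, where the added 1 RPKM understates a change. Nlrc5 and Irf1, known drivers of class I genes, were not called in any comparison on RPKM with all libraries in the fit. Nlrc5 was low too, at 1.19 to 1.65 RPKM, so the added 1 RPKM also understates its changes. Nlrc5, the class I coactivator, averaged 1.44 ± 0.181 RPKM in ABX 5-FU, 1.28 ± 0.078 in Ctrl 5-FU, 1.35 ± 0.149 in ABX and 1.53 ± 0.0896 in Ctrl. Irf1 averaged 23.6 ± 4.79 RPKM in ABX 5-FU, 23.4 ± 4.76 in Ctrl 5-FU, 16.7 ± 3.16 in ABX and 20.4 ± 3.14 in Ctrl. On the TPM scale Irf1 was called higher in ABX 5-FU than in ABX (0.67, adjusted p = 0.0253). On RPKM it was called higher there without Ctrl 5-FU replicate 1 (0.47, adjusted p = 0.0464) and without ABX replicate 3 (0.61, adjusted p = 0.0414).

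Of the 7 other heavy chains tested, 3 were called higher (H2-T22, H2-T24 and H2-M3) and 1 lower (H2-Q7) in ABX 5-FU against ABX, and 0 higher and 2 lower (H2-Q6 and H2-Q7) in Ctrl 5-FU against Ctrl, beside the shares of all genes given above. Without ABX replicate 2 the counts in ABX 5-FU against ABX were 0 higher and 0 lower, and without ABX 5-FU replicate 2 they were 0 and 1. Over all 12 left-out libraries they ran from 0 to 3 higher and 0 to 1 lower, and in Ctrl 5-FU against Ctrl from 1 to 3 lower with 0 higher. On the TPM scale 2 were higher (H2-T10 and H2-T24) and 1 lower (H2-Q7) in Ctrl 5-FU against Ctrl. H2-Q7, a Qa-2 heavy chain, averaged 72.0 ± 10.98 RPKM in ABX 5-FU, 83.7 ± 11.9 in Ctrl 5-FU, 94.8 ± 11.5 in ABX and 129.8 ± 3.33 in Ctrl. It fell by 0.40 ± 0.13 in ABX 5-FU against ABX (adjusted p = 0.0375), a call lost on the TPM scale, after quantile normalization and in 6 of 12 cases with 1 library left out, and by 0.64 ± 0.13 in Ctrl 5-FU against Ctrl (adjusted p = 0.00706). The Qa-2 genes are close copies of one another, so their values are uncertain. The mean of H2-T22 was 15.3 RPKM in ABX 5-FU and 12.5 RPKM in ABX, higher by 0.27 ± 0.086 (adjusted p = 0.0338), a call lost in 4 of the 12 cases.

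Of the 6 loading and trimming genes tested, 0 were called in ABX 5-FU against ABX and 1, lower, in Ctrl 5-FU against Ctrl, beside 11.8% of all genes. With 1 library left out there were 0 to 3 lower in the second comparison, 0 without Ctrl 5-FU replicate 2 or 3 and 3 without Ctrl 5-FU replicate 1, and 0 to 1 lower in the first. Calr, the chaperone that holds the heavy chain for loading, averaged 108.8 RPKM in Ctrl 5-FU and 133.7 RPKM in Ctrl, and fell by 0.30 ± 0.072 (adjusted p = 0.0153). That call was lost on the TPM scale, and Calr was called higher there in ABX 5-FU against ABX (0.29, adjusted p = 0.00865). Without Ctrl 5-FU replicate 2 or 3 the adjusted p in Ctrl 5-FU against Ctrl was 0.05 and 0.0532. Canx and Pdia3, which fold the heavy chain, changed by -0.35 ± 0.15 (adjusted p = 0.112) and -0.34 ± 0.13 (adjusted p = 0.083) in Ctrl 5-FU against Ctrl. Erap1, which trims peptides in the endoplasmic reticulum, changed by 0.10 ± 0.08 (adjusted p = 0.386). Of the 4 cytosolic peptidases tested, Thop1, which destroys class I peptides, fell by 0.78 ± 0.082 in ABX 5-FU against ABX (adjusted p = 0.000162) and by 0.49 ± 0.082 in Ctrl 5-FU against Ctrl (adjusted p = 0.00298). Tpp2, which shortens long proteasome products, rose by 0.28 ± 0.068 (adjusted p = 0.00953) and 0.33 ± 0.068 (adjusted p = 0.0072) in the same comparisons. H2-T22, H2-T24, H2-M3, H2-Q6, H2-T10, Stat2, Tpp2 and Mr1 were picked for description after their values were seen. The class I-like gene Mr1, which presents vitamin B metabolites, rose by 0.48 ± 0.15 in ABX 5-FU against ABX (adjusted p = 0.0369). That call was lost after quantile normalization (adjusted p = 0.0539) and without ABX replicate 1 or 2 or ABX 5-FU replicate 2 or 3 (adjusted p = 0.0981 to 0.125).

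**Figure D5:**
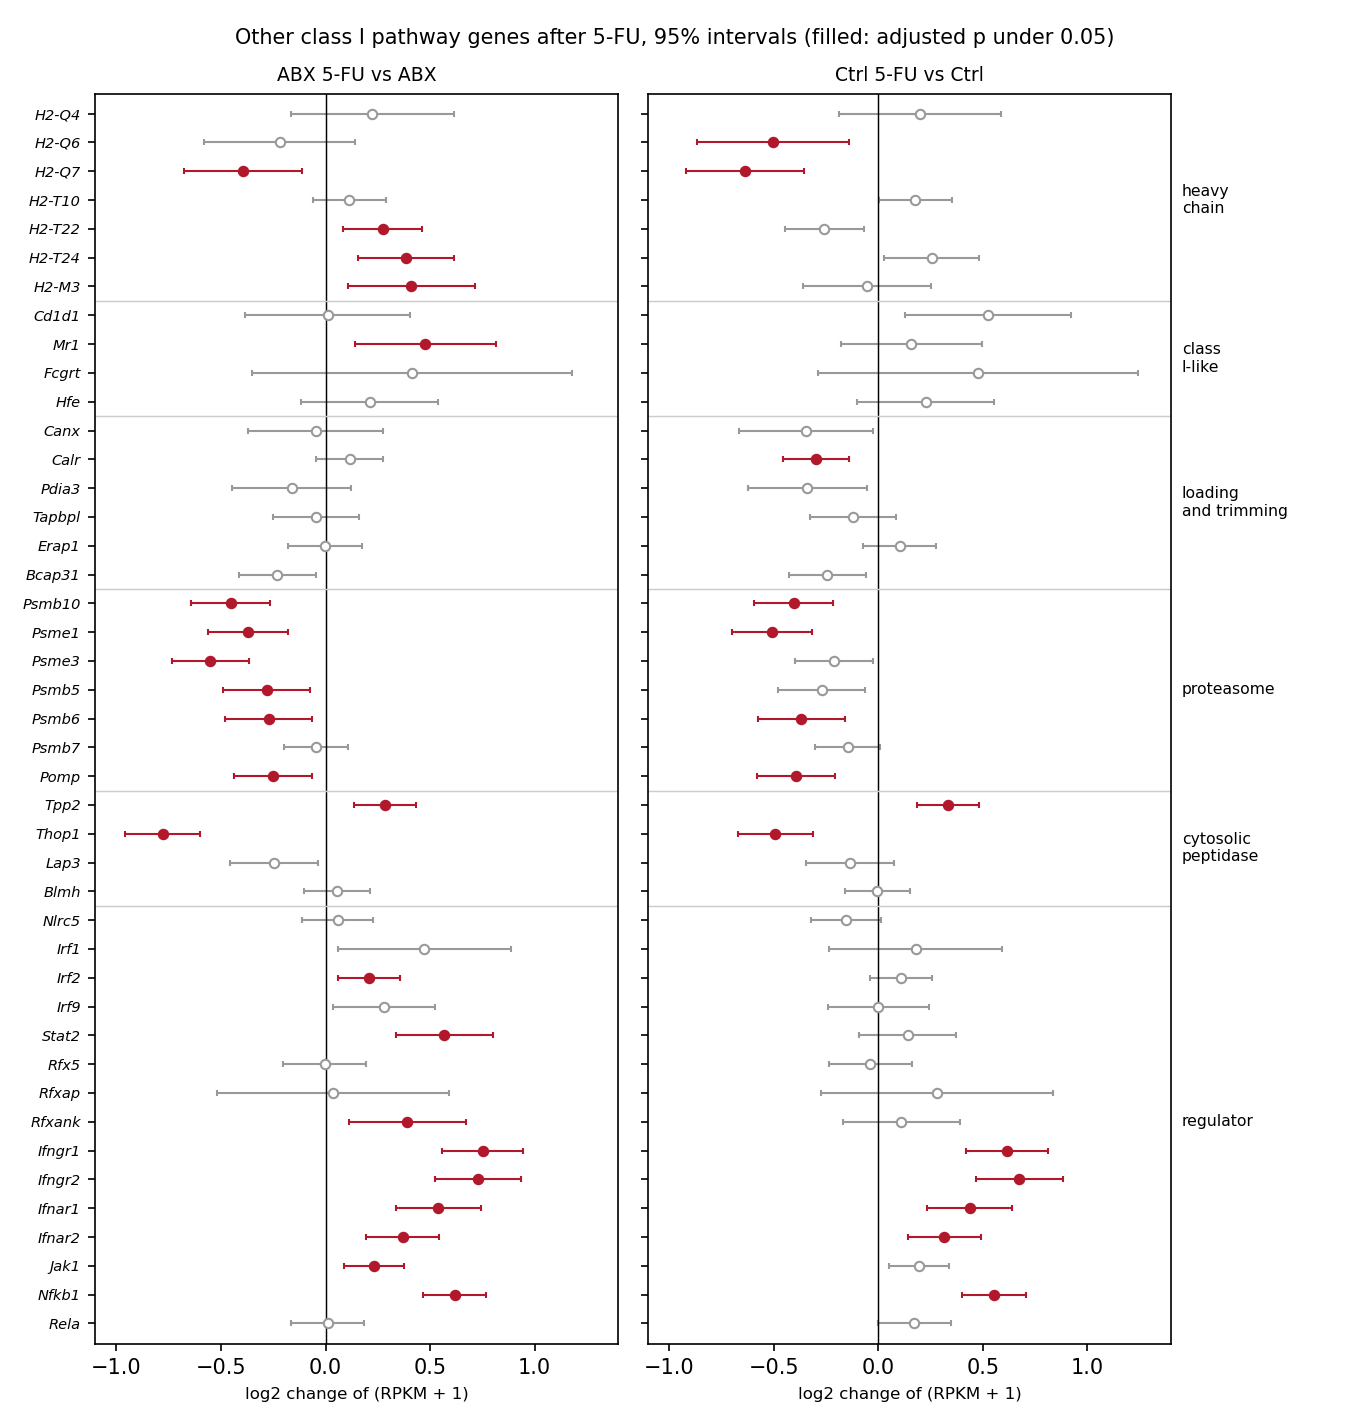
log2 change of RPKM + 1 with its 95% interval from limma for 43 of the 44 other class I pathway genes tested (rows, grouped by role) in ABX 5-FU against ABX (left) and Ctrl 5-FU against Ctrl (right), filled where the adjusted p was under 0.05. The filled proteasome genes (6 and 4) lie below 0 and the filled regulators (9 and 5) above 0, also on the TPM scale for the genes called there.

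Across the 12 libraries, which share groups and depth, the genes fell into pairs that varied together and pairs that did not. Of the 45 pairs of the 10 genes, the highest Pearson r of log2 values was 0.92 for Psmb8 and Psme2, followed by 0.89 for Psmb8 and Psmb9 and 0.85 for Tap1 and Tap2. H2-D1 and H2-T23 had r = 0.83. The lowest was -0.43, for H2-D1 and Psme2. Against the mean of the other 9 genes, H2-K1 had the highest r, 0.89, and B2m the lowest, 0.12.

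The standardised mean of the 10 genes was -0.34, -0.10 and -0.85 in ABX 5-FU, 0.22, 0.26 and -0.22 in Ctrl 5-FU, -1.11, -0.42 and 0.18 in ABX, and 0.53, 0.99 and 0.86 in Ctrl, in units of the SD of each gene. It was highest in the 3 Ctrl libraries. The 8 tested genes outside the set with the highest r to this mean over the 12 libraries were Dpm2 (0.957), Rpl9-ps4 (0.942), Il18bp (0.938), Gss (0.928), Slc16a13 (0.908), Uba7 (0.904), Ifi27 (0.903) and Shc1 (0.899). Dpm2, a subunit of the enzyme that makes dolichol phosphate mannose, averaged 17.8 RPKM in ABX 5-FU, 19.0 RPKM in Ctrl 5-FU, 18.1 RPKM in ABX and 20.9 RPKM in Ctrl. These r values come from searching all tested genes and describe these libraries only.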

How the data were processed

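RNA from sorted mouse HSCs was sequenced in 12 libraries made with SMART-Seq v4 and Nextera XT kits, per the labels' protocols. Per the submitters' processing notes, mm10, Partek and STAR 2.5.3a were used; no source used here gives the annotation release or the read-counting settings. The values are RPKM, deposited by the authors in 1 table of 46986 features with a lowest value of 0.0001; genes were matched by symbol, and replicate numbers follow accession order. With exon lengths from GENCODE M21 for genes with few exons, low RPKM values were near whole reads within 2% for 54.7% to 59.5% of values. The length behind the RPKM is not given, and another length could match better. Read counts were not recovered, no count test was run, and depth is an estimate.

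Genes reaching 1 RPKM in 3 or more libraries (8553 of them) were tested on log2(RPKM + 1) with limma 3.58.1 in R 4.3.3 (empirical Bayes with intensity trend, 1 mean for each of 4 groups, 8 residual degrees of freedom), two-sided, with Benjamini-Hochberg adjustment over all 8553 genes and calls under 0.05. A fold on this scale understates the change of low genes. If the length behind the RPKM includes introns, long genes pass the filter less easily, which would also shape the shares of all genes. The method was tested on simulated data with normal noise, in which the added changes were larger than any called among the 10 genes. That test does not cover changes of the size called among them. Alternatives changed the pseudocount, the filter, the scaling, the trend, the libraries in the fit and the i7 index as a block.

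The 10 genes, the pathway list and the marker lists were chosen with earlier results of these data known. Besides the 10 genes, the rule named up to 6 called pathway genes per comparison, by smallest adjusted p, and 12 fixed ones (Nlrc5, Irf1, Psmb10, Psme1, Psmb5, Psmb6, Psmb7, Erap1, Calr, Canx, Pdia3 and 1 that is not reported here). Hm13 and Nrdc were not matched by symbol, and H2-Q10, H2-Bl, Lnpep, Npepps, Irf8 and Jak2 were under the filter. Gene positions are those of the table. Against the GENCODE M21 annotation, 84.6% of 44046 matched genes, and 7 of the 10, had the same start and end. Shared 75-base windows were counted in the GENCODE M21 transcripts, and upstream sequences are from RefSeq.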

Additional observations from a re-analysis of the deposited data

How the results depend on the processing

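Over the changes of the 10 genes recomputed under each setting, 914 kept their direction and side of the threshold, 12 passed the threshold anew, 9 lost it and 35 turned their sign, none of these 35 being called; the cause was not tested unless stated. Calls among the 10 genes in ABX 5-FU against ABX numbered 7 on the TPM scale. In Ctrl 5-FU against Ctrl they numbered 5 on the TPM scale and 5 after quantile normalization. In ABX against Ctrl there was 1 on the TPM scale, and 0 to 1 with 1 library left out, the call being that of H2-D1 without ABX replicate 3. Calls among all genes in ABX 5-FU against ABX were 1567 with no filter, 1460 with a filter of 5 RPKM, which tests fewer genes, and 1624 to 2876 with 1 library left out. Those in ABX 5-FU against Ctrl 5-FU were 17 with no filter, 22 with the filter of 5 RPKM, 72 after quantile normalization, 22 with the i7 index as a block, 47 on the TPM scale, 3 from the compared groups alone and 6 to 42 with 1 library left out. Those in ABX against Ctrl were 11 with no filter, 15 with the filter of 5 RPKM, 20 with the block, 13 on the TPM scale and 1 to 29 with 1 library left out. Those in Ctrl 5-FU against Ctrl were 813 with no filter, 1184 with the filter of 5 RPKM, 812 from the compared groups alone and 942 to 2078 with 1 library left out. Those of the interaction were 10 with no filter, 0 with the filter of 5 RPKM, 0 with the block and 0 to 3 with 1 library left out.

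B2m turned to 0.11 after quantile normalization and 0.086 on the TPM scale in ABX 5-FU against ABX, and to 0.18 and 0.097 in Ctrl 5-FU against Ctrl. H2-K1 turned to 0.17 and 0.10 in Ctrl 5-FU against Ctrl. Tap2 turned to 0.074 there on the TPM scale, Tap1 to -0.012 in ABX 5-FU against Ctrl 5-FU on the TPM scale, and the Psmb8 interaction to -0.00073 after quantile normalization. With 1 library left out, the changes in ABX 5-FU against Ctrl 5-FU ran from -0.016 to 0.11 for B2m, -0.14 to 0.0089 for H2-T23, -0.061 to 0.051 for Psmb9, -0.070 to 0.042 for Psme2 and -0.028 to 0.065 for Tap1. They ran from -0.075 to 0.071 for H2-T23 and -0.24 to 0.069 for Tap2 in Ctrl 5-FU against Ctrl, from -0.091 to 0.017 for Psme2 in ABX against Ctrl, and from -0.014 to 0.060 for Tapbp in ABX 5-FU against ABX. The interactions ran from -0.071 to 0.059 for B2m, -0.061 to 0.082 for Psmb8 and -0.034 to 0.084 for Psme2.

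In the pathway list, TPM scaling gave 17 higher and 4 lower in ABX 5-FU against ABX and 11 higher and 5 lower in Ctrl 5-FU against Ctrl, an alternative added after the data were seen. No paired analysis was possible because the replicate numbers only name the libraries; the i7 index, shared by 1 library with antibiotics and 1 without, was used as a block in both antibiotic comparisons and the interaction and changed no call among the 10 genes there. It could not be fitted for the 5-FU comparisons, where no index is shared.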
